A study of Mus musculus with 4 samples.

Results

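The 7 genes described here encode transcription factors that commit cells to skeletal muscle: the myogenic bHLH factors *Myod1*, *Myog*, *Myf5* and *Myf6*, the paired box factors *Pax3* and *Pax7*, and the homeobox factor *Six4*. They were chosen by name, as the probe sets of the array that are annotated to exactly 1 of these genes, and each gene had 1 such probe set, so that 7 of the 21044 probe sets naming a single gene are described. The question was how much of each transcript came down with the RNA-binding protein CUGBP1 compared with a control antibody. The cells were proliferating C2C12 (LKO-1) myoblasts, a stable derivative of the mouse myoblast line C2C12 that carries an empty lentiviral vector, grown in puromycin and kept sub-confluent so that they would not differentiate. RNA recovered from cytoplasmic lysate with the monoclonal 3B1 antibody against CUGBP1 (CUGBP1 IP, 2 arrays) was compared with RNA recovered with normal IgG (control IgG, 2 arrays). Both groups came from the same kind of cells and carried no other treatment. The sources do not say whether the replicates came from separate cultures, or whether the line is 1 clone.

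Myogenic bHLH proteins pair with E proteins and bind E-box sequences in the promoters of muscle genes. *Myf5* and *Myod1* act early, in determination, *Myog* drives terminal differentiation, and *Myf6*, also called MRF4, is mostly a factor of late differentiation and of mature fibres. *Pax3* and *Pax7* lie upstream of the bHLH factors in embryonic progenitors and in satellite cells, and *Six4*, like other proteins of its family, works with Eya coactivators on enhancers of *Myf5* and *Myog*. CUGBP1, the product of *Celf1*, binds GU-rich RNA and can bring deadenylases to a transcript.

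Values are intensities divided by the 5th percentile of the same array, so a transcript without signal reads about 1. A value counted as background when it did not exceed the 95th percentile of 1198 olfactory and vomeronasal receptor probe sets on its own array, which was 1.23 and 1.29 for the CUGBP1 IP, with 1.09 and 1.16 for control IgG. The median probe set read 1.31 and 1.47 in the CUGBP1 IP, with 1.08 and 1.22 in control IgG, and the second array of each group was the brighter one. Of the 8 myoblast markers, 8 were above background on both CUGBP1 IP arrays, 2 of them being the members *Myod1* and *Myf5*. Of 8 markers of differentiated muscle, 6 were above background on both CUGBP1 IP arrays (*Acta1* and *Mylpf* on all 4 arrays). The 8 summed to 13.5 and 12.9 in the CUGBP1 IP, with 8.95 and 10.6 in control IgG. The counts were 0 of 4 for endothelial, 0 of 3 for blood, 1 of 4 for neuron, 1 of 4 for epithelial (*Krt8*, above background on all 4 arrays) and 3 of 5 for adipocyte markers (*Pparg* and *Cebpa* on all 4 arrays), the last summing to 8.07 and 9.40 in the CUGBP1 IP, with 5.59 and 7.16 in control IgG. Of 6 fibroblast markers, 4 were above background on both CUGBP1 IP arrays, and their summed level was 16.5 and 17.6 in the CUGBP1 IP, with 8.26 and 13.4 in control IgG. Over all genes, 10768 of 19452 were above background on both CUGBP1 IP arrays. The part of these cell types in the results below was not tested. In bulk lysates, fewer cells making a transcript and less of it per cell cannot be told apart. Total RNA of the lysate was not analysed here, so a weak signal in the CUGBP1 IP cannot be told apart from a transcript that was scarce in the lysate.

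The transcripts of *Myod1*, *Myog* and *Six4* had 4 to 8 times more signal in the CUGBP1 IP than in control IgG, that of *Myf5* about 2 times more, and those of *Pax7*, *Pax3* and *Myf6* lay near the floor of the arrays. These folds depend on the scale. With quantile normalization the ratios were 3.24 for *Myod1*, 3.72 for *Myog*, 1.96 for *Six4* and 0.976 for *Myf5*. With 1 subtracted from each value, to remove the floor, they were 13.0, 33.0, 9.26 and 3.30 in the same order. The control IgG values of *Myog*, 1.19 and 1.31, lay close to the background limits of 1.09 and 1.16. Its 33.0 therefore rests on a small remainder and is not read as a larger fold than the others. Of the 7 members, 5 were above background on all 4 arrays, where 7727 of the 21044 tested probe sets were. *Pax3* was above background on CUGBP1 IP replicate 2, and *Myf6* was above it on none. limma called 1 member higher at an adjusted p under 0.05 (*Myog*) and 0 lower, while it called 1.95% of all tested probe sets higher and 0.138% lower. At an unadjusted p under 0.05, 4 members were higher, where 28.6% of all tested probe sets were. The signal-to-negative ratio, the study's measure of association, divides the mean of a probe set in the CUGBP1 IP by its mean in control IgG. The ratio of 3 members (*Myod1*, *Myog* and *Six4*) was in the top 5% (5.0% of all tested probe sets), that is at or above 2.57. The paper took its top 5% over its own list of mRNAs and gives a higher lower limit for it. A gene in the top 5% here is therefore not always in the paper's. The median ratio of the 7 members was 2.01, against 1.22 over all tested probe sets. In 6 of the 7 the dimmer CUGBP1 IP array still exceeded the brighter control IgG array, which held for 66.3% of all tested probe sets.

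**Figure D1:**
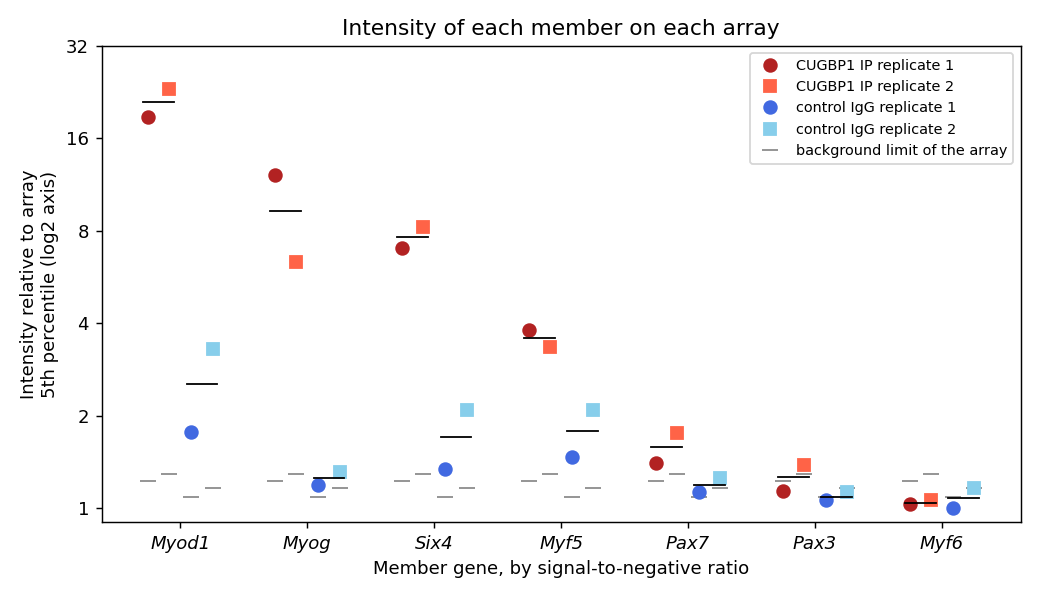
Intensity relative to the 5th percentile of the array (log2 axis) for the 7 members, with 1 point per array, black lines at the means of 2 arrays and grey ticks at the background limit of each array. The CUGBP1 IP points of *Myod1*, at 18.80 and 23.21, stood clear of its control points, and all 4 points of *Myf6* lay at or below the grey ticks.

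*Myod1*, the factor that can turn fibroblasts into muscle, read 18.80 and 23.21 after precipitation of CUGBP1 and 1.77 and 3.30 with control IgG. Its groups stood far apart, and the second array was the brighter one in each. The ratio was 8.29, which ranked 84 of 21044 probe sets. The means were 21.0 ± 3.12 and 2.54 ± 1.08 (SD, n = 2 arrays each). They differed by 3.11 on the log2 scale (SE 1.15, 95% confidence interval 0.85 to 5.37), with an unadjusted limma p of 0.00702. That difference was the largest among the members but missed the threshold after adjustment (limma adjusted p = 0.0958). Over the alternatives that kept all 4 arrays, the limma adjusted p ran from 0.00716 to 0.143. *Myod1* passed with quantile normalization, with only probe sets above background on all 4 arrays, and with replicate number as a block. With 1 array left out the log2 difference was 2.66 to 3.56. The study followed decay of this transcript by PCR and reports that it was significantly stabilized in CUGBP1 knockdown cells. That is a measure of decay and not of recovery with CUGBP1. The pair of primers is the designed sequence of a member that the sources give. It is shown here 5′ to 3′ to identify the transcript.
Myod1 left primer: tggatatggagcttctatcgc
Myod1 right primer: ggtgagtcgaaacacggatcat

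*Myog*, which encodes myogenin, read 12.17 and 6.35 in the CUGBP1 IP, with 1.19 and 1.31 in control IgG. The control values were barely above background, so the ratio of 7.41 (rank 107) was set against a near-empty control. *Myog* rose from 1.25 ± 0.0849 to 9.26 ± 4.12 (SD, n = 2 arrays each), or by 2.82 on the log2 scale (SE 0.69, 95% confidence interval 1.46 to 4.17), with a limma adjusted p of 0.0170. Over 10 alternative settings its adjusted p ran from 0.000512 to 0.663, and it missed the threshold without the intensity trend (limma adjusted p = 0.143) and when any 1 of the 4 arrays was left out, with log2 differences of 2.35 to 3.28. Under these 5 settings limma called 0 of the 21044 probe sets, so the loss was not particular to *Myog*. Unlike most transcripts, *Myog* was brighter on the first CUGBP1 IP array than on the second. Of 10768 genes above background on both CUGBP1 IP arrays, 1 (*Mrfap1*, named after its values were seen) had a larger log2 ratio of CUGBP1 IP replicate 1 to replicate 2 than *Myog*, whose value was 0.94.

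*Myog* was called and *Myod1* was not, although the log2 difference of *Myod1* was larger. On the log2 scale the residual SD of *Myog* and that of *Myod1* were both 0.47, with the spread of *Myod1* mostly in control IgG and that of *Myog* in the CUGBP1 IP. The fit took its spread from probe sets of similar intensity alone (its prior degrees of freedom were infinite), so *Myod1*, which was brighter on average, received the SE of 1.15 and *Myog* that of 0.69. When the 7727 probe sets above background on every array were fitted alone, both were called (limma adjusted p = 0.0407 for *Myod1* and 0.0163 for *Myog*). Whether these genes differed from each other was not tested.

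*Six4*, a homeobox factor acting on early muscle enhancers, read 7.03 and 8.21 in the CUGBP1 IP, with 1.34 and 2.09 in control IgG. Its groups did not overlap, and its ratio was 4.44 (rank 311). The means were 7.62 ± 0.834 and 1.71 ± 0.530 (SD, n = 2 arrays each). They differed by 2.18 on the log2 scale (SE 0.74, 95% confidence interval 0.73 to 3.63). It missed the threshold (limma adjusted p = 0.0749). It passed with arrays divided by their medians, with quantile normalization, with an offset of 1 before log2 and with the filter on dim probe sets. The limma adjusted p ran from 0.0296 to 0.0469 over these 4 settings. Over all alternatives that kept the 4 arrays it ran from 0.00521 to 0.143. With 1 array left out the log2 difference of *Six4* was 1.86 to 2.50.

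*Myf5*, the other determination factor of the bHLH family, read 3.80 and 3.35 in the CUGBP1 IP, with 1.47 and 2.09 in control IgG. The groups did not overlap, but the ratio of 2.01 (rank 2166, percentile 89.7) lay below the limit of the top 5%. The log2 difference was 1.03 (SE 0.52, 95% confidence interval 0.01 to 2.04), with an unadjusted limma p of 0.0471 and a limma adjusted p of 0.169. With quantile normalization the sign turned (log2 -0.04), and over 10 alternative settings its limma adjusted p ran from 0.0142 to 0.954.

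*Myf6* read 1.03 and 1.06 in the CUGBP1 IP, with 1.00 and 1.16 in control IgG. None of these values exceeded the background of its array, so no fold is read from it. *Myf5* and *Myf6* are adjacent protein-coding genes on chromosome 10. Of this neighbouring pair, *Myf5* was above background on all 4 arrays and *Myf6* on none.

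The Pax members gave little signal in either precipitate. *Pax7*, which marks satellite cells, read 1.40 and 1.76 in the CUGBP1 IP, with 1.13 and 1.25 in control IgG. All 4 of these values were above background and the groups did not overlap, with a ratio of 1.33 (percentile 61.3) and a log2 difference of 0.40 whose SE was 0.22 (limma adjusted p = 0.188). *Pax3*, its paralogue in the embryonic dermomyotome, read 1.14 and 1.38 in the CUGBP1 IP, with 1.06 and 1.13 in control IgG. Of its 4 values 3 were background, both control values among them, so no fold is read from it either (limma adjusted p = 0.242). With quantile normalization the log2 difference of *Pax7* was -0.03.

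**Figure D2:**
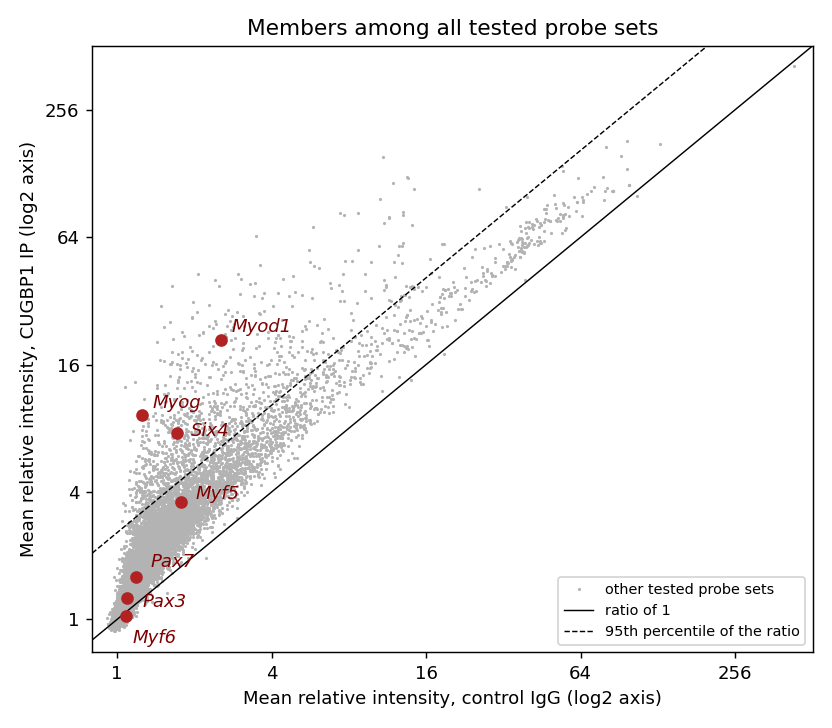
Mean relative intensity in the CUGBP1 IP against that in control IgG (both log2 axes) for the 21044 tested probe sets in grey and the 7 members in red, with a solid line at a ratio of 1 and a dashed line at the 95th percentile of the ratio, 2.57. *Myod1*, *Myog* and *Six4* lay above the dashed line, and *Myf6* just under the solid line.

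Because the control IgG arrays differed in brightness, each CUGBP1 IP array was also set against each control IgG array, which gave 4 ratios per member. They ran from 5.70 to 13.1 for *Myod1*, from 4.85 to 10.2 for *Myog* and from 3.36 to 6.13 for *Six4*. These 3 ranges overlapped. Within the same pair of arrays *Myod1* was above *Six4* in 4 of 4 pairs, *Myod1* above *Myog* in 3 of 4 and *Myog* above *Six4* in 3 of 4, so the place of *Myog* in the order changed with the arrays chosen. The 4 pairs share arrays and are not independent. The range of *Myf5* was 1.60 to 2.59, wholly below that of *Six4* and wholly above that of *Pax7*, 1.12 to 1.56. All 7 members were brighter on control IgG replicate 2, so ratios to it were the lower ones, while for *Myog* the choice of the CUGBP1 IP array mattered more (10.2 and 9.29 with replicate 1, 5.34 and 4.85 with replicate 2). With 2 arrays against 2, an exact permutation test of a single value cannot go below a two-sided p of 0.333, so none was run on the differences between members.

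**Figure D3:**
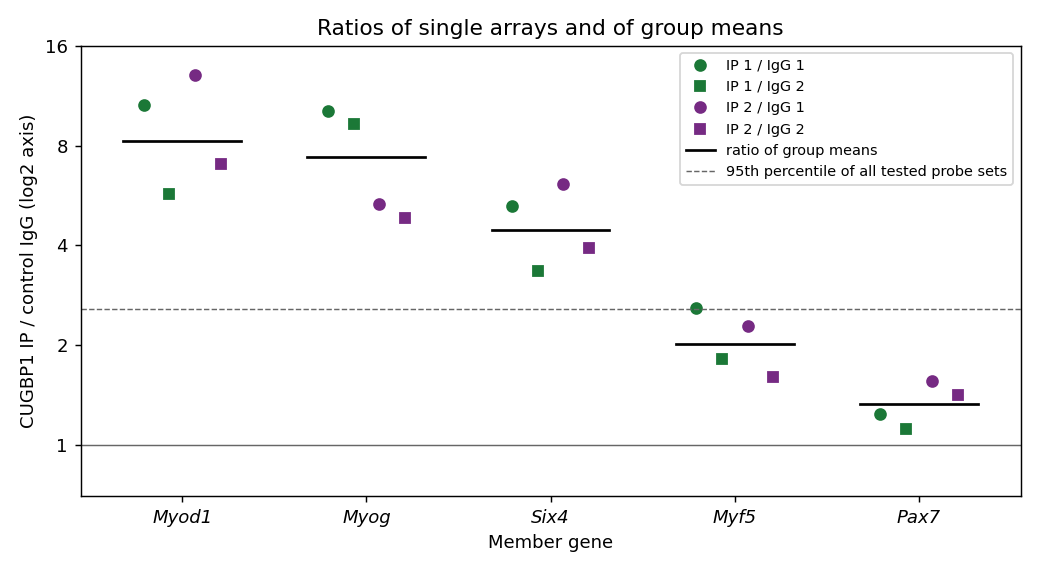
Ratio of each CUGBP1 IP array to each control IgG array (log2 axis, 4 points per member) for the 5 members above background on all 4 arrays, with black lines at the ratio of the group means, a solid line at 1 and a dashed line at 2.57. All 4 points of *Myod1*, *Myog* and *Six4* lay above the dashed line, from 3.36 upwards.

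The scale of the arrays moved the values of all probe sets. The median log2 difference over all tested probe sets was 0.29, and it was 0.02 with arrays divided by their medians and -0.01 with quantile normalization. Relative to that median, the log2 difference was 2.82 for *Myod1*, 2.53 for *Myog*, 1.89 for *Six4*, 0.74 for *Myf5* and 0.11 for *Pax7*. Division by medians shifts all probe sets alike and cannot change these relative values. The 95th percentile of all probe sets was 9.37 and 13.0 in the CUGBP1 IP, with 2.36 and 5.96 in control IgG. Quantile normalization makes the distributions of the arrays equal, so it also removes this difference between the groups. Whether the difference came from the precipitation was not tested. Quantile normalization lowered the relative values of *Myod1*, *Myog* and *Six4* to 1.70, 1.79 and 0.98 and brought *Myf5* to -0.03. Under that setting limma called all 3 of the higher members (adjusted p = 0.00815, 0.0275 and 0.0299 in the same order).

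**Figure D4:**
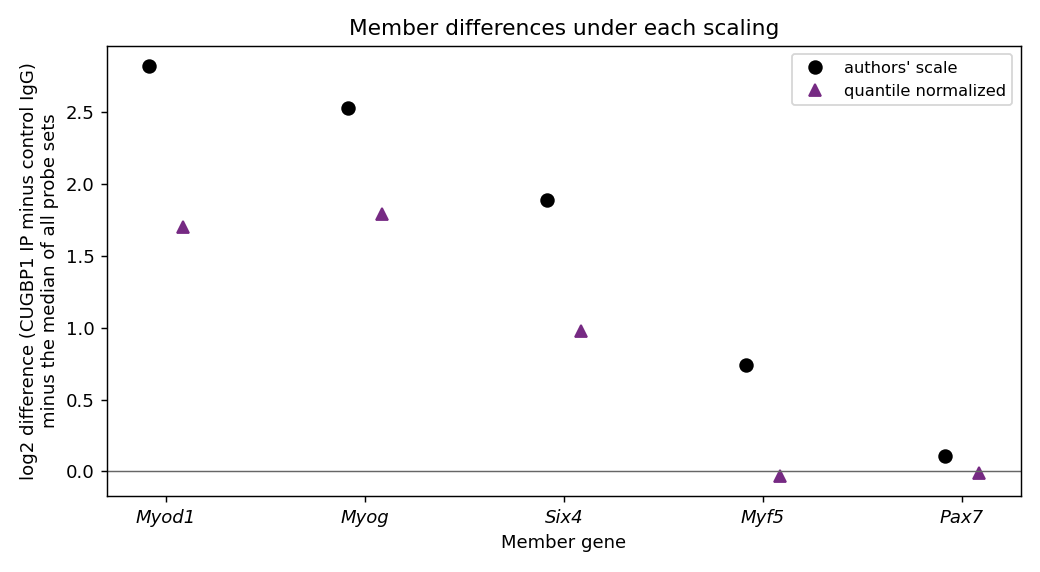
Log2 difference of the 5 members above background on all 4 arrays, CUGBP1 IP minus control IgG, minus the median log2 difference of all tested probe sets, on the authors' scale (circles) and after quantile normalization (triangles). *Myod1*, *Myog* and *Six4* stayed at 0.98 or more in both, while *Myf5* moved from 0.74 to -0.03.

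The genes whose 4 log2 values were most like those of a member were also identified, by Euclidean distance over the 4 arrays, which is a description over few points. The nearest to *Myod1* were *Pfdn2* and *Poldip3* (distances 0.20 and 0.21), and the nearest to *Six4* were *Nfkbia* (0.07), the NF-kappaB inhibitor, and *Obi1* (0.15). *Myog* had no close match, its nearest genes being *Ttc33* at 0.62 and *Lamp2* at 0.69. *Myf5* lay near *Adamts1* and *Arhgap23* (0.13 each), and *Pax7* near *Ppie* and *Adamtsl4* (0.04 each).

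Relatives of *Pax3*, *Pax7* and *Six4* and their cofactors were above background on both CUGBP1 IP arrays in 11 of 17 cases, where 10768 of 19452 genes were. Ratios among these 11 ran from 1.08 to 2.27. Of 17 measured genes of the paired box, sine oculis, Eya and Dach families, limma called 0 higher and 0 lower, where it called 1.94% of all genes higher. At an unadjusted p under 0.05 there were 5 (29.4% of all genes), and 0 were in the top 5% of the ratio. Their median log2 difference was 0.22, against 0.29 over all genes. The highest ratios were those of 3 of the 4 Eya coactivators. *Eya4* averaged 4.89 ± 0.325 in the CUGBP1 IP, with 2.16 ± 0.926 (SD, n = 2 arrays each) in control IgG (limma adjusted p = 0.179), a ratio of 2.27, *Eya3* had a ratio of 1.79 and *Eya1* one of 1.62 (limma adjusted p = 0.118 for each), while the fourth, *Eya2*, had 1.13 (limma adjusted p = 0.414). *Pax2* was the lowest of those above background on both CUGBP1 IP arrays, with a ratio of 1.08. The other measured genes of the family of *Six4* read 1.29 to 1.66 in the CUGBP1 IP, close to the background limits of 1.23 and 1.29, and 5 of the 17 genes were above background on all 4 arrays.

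Of 25 other transcription regulators of the myogenic lineage, 23 were measured. Among these 23, limma called 0 higher and 0 lower, where it called 1.94% of all genes higher. In the top 5% there were 3 (4.97% of all genes). At an unadjusted p under 0.05 there were 7 (29.4% of all genes), and the median log2 difference was 0.47, against 0.29 over all genes. *Snai2*, a zinc finger repressor that competes at E-boxes, read 13.11 and 11.50 in the CUGBP1 IP, with 2.63 and 4.22 in control IgG, a ratio of 3.59 (limma adjusted p = 0.206). *Twist2*, a bHLH repressor of muscle differentiation, reached 3.04 (limma adjusted p = 0.155), and *Bhlhe41*, another bHLH repressor, reached 2.61 (limma adjusted p = 0.0778). *Pitx3* was the lowest of those above background on both CUGBP1 IP arrays, at 1.08.

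Genes that the myogenic bHLH factors are known to activate were above background on both CUGBP1 IP arrays in 18 of 24 cases. Of all genes, 10768 of 19452 were. Ratios among these 18 targets ran from 1.15 to 2.99. The list held 26 genes, of which 24 were measured. *Cdkn1a* and *Cdon* had no tested probe set, and the paper names both among transcripts bound by CUGBP1. The counts below therefore leave them out. Of the 24 genes, limma called 1 higher (1.94% of all genes) and 0 lower, 1 (*Chrna1*) was in the top 5% (4.97% of all genes), and 11 had an unadjusted p under 0.05 (29.4% of all genes). The median log2 difference was 0.42, against 0.29 over all genes. *Actc1*, cardiac alpha-actin, which is also made in embryonic and regenerating skeletal muscle, rose from 1.14 ± 0.0424 to 2.88 ± 0.580 (SD, n = 2 arrays each; ratio 2.53, log2 1.32, SE 0.34, limma adjusted p = 0.0208). Its control values, 1.11 and 1.17, lay at the background limits, and with quantile normalization, without the intensity trend or without any 1 array it was not called. *Chrna1*, the alpha subunit of the muscle acetylcholine receptor, read 5.71 and 3.62 against 1.34 and 1.78 (ratio 2.99, limma adjusted p = 0.0855), and *Rapsn*, which clusters that receptor, had a ratio of 2.40 (limma adjusted p = 0.144). *Mylpf*, a myosin light chain of fast fibres, was the lowest of those above background on both CUGBP1 IP arrays, with 1.15.

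**Figure D5:**
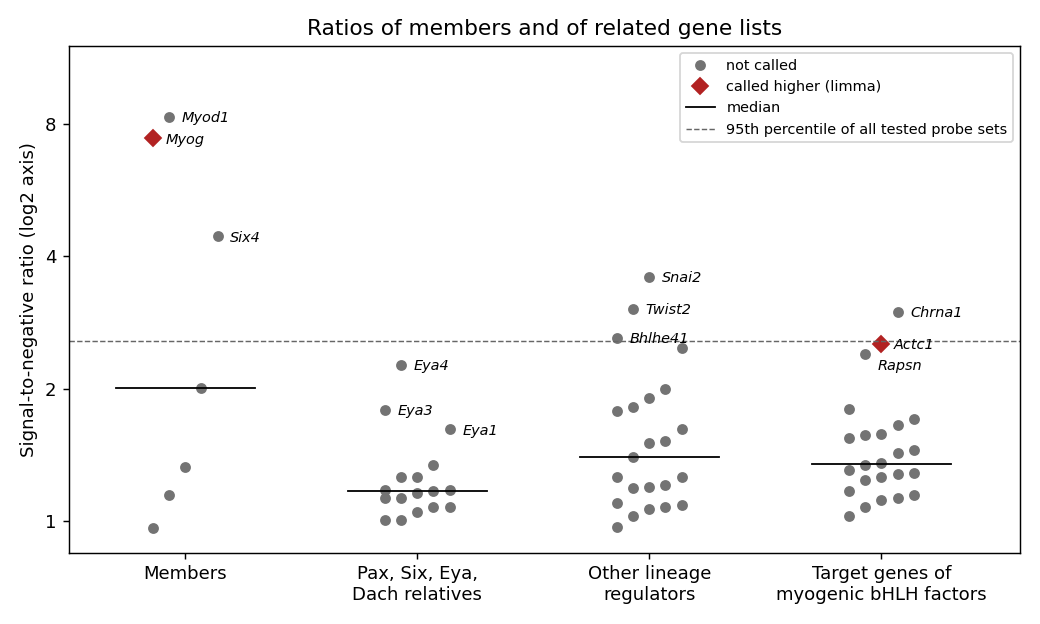
Signal-to-negative ratio (log2 axis) of the 7 members and of the measured genes of 3 related lists, 1 point per gene, red diamonds for genes called higher by limma, short lines at the medians and a dashed line at 2.57. *Myod1*, *Myog* and *Six4* had ratios of 4.44 or more, and no measured gene of the 3 lists exceeded 3.59. Points near 1 include genes at background.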

How the data were processed

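Deposited values are linear intensities of 4 Affymetrix Mouse Gene 1.0 ST arrays, each divided by the authors by the 5th percentile of its array. How probes were summarised, background treated and probe sets kept was not given in the sources used here. Division by the 5th percentile leaves a floor near 1. If background was not subtracted before it, ratios of dim probe sets are compressed. Of 25175 probe sets, 21044 name 1 gene by the platform annotation and were tested, 1492 name several and 2639 none. Symbols of 20959 were updated through a RefSeq gene table (GRCm38.p6), used for names and gene order.

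Groups and replicate numbers came from titles. Log2 values were compared with limma 3.58.1 in R 4.3.3 (eBayes with an intensity trend, two-sided, Benjamini-Hochberg over 21044 probe sets, threshold 0.05). The fit was run on simulated data with an equal and independent spread for all probe sets. That run does not show its error rate on these arrays, whose spread changed with intensity. The number of arrays limits the precision. In the main fit, p-values use the spread between these arrays pooled over probe sets of similar intensity, not each probe set's own. That spread may be technical. Each gene of a list is represented by its brightest probe set. The text names all 7 members, the 2 genes nearest by pattern to each member above background on both CUGBP1 IP arrays, and from each list the called genes, the 3 highest ratios and the lowest among those above background. The members and lists were chosen with earlier results of these data known. Alternatives were the scaling, the offset, the filter on dim probe sets, the trend, the replicate block, 1 subtracted from each value and each array left out.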

Additional observations from a re-analysis of the deposited data

How the results depend on the processing

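*Myod1*, *Myog* and *Six4* were the 3 members in the top 5% of the ratio under each of the 6 alternatives run on it, and their log2 differences stayed above 0 under all 10 alternatives to the fit. The number of members called higher, 1 as reported, was 2 with arrays divided by their medians (7.02% of all tested probe sets called higher), 3 with quantile normalization (2.05%), 2 with an offset of 1 (3.63%), 3 with only probe sets above background on all 4 arrays (3.49%) and 0 without the intensity trend (4 at an unadjusted p under 0.05), where 0 of 21044 probe sets were called. The number of genes called over the 3 related lists was 5, 0 and 3 under the first 3 of these and 0 without the trend. Leaving out any 1 array gave 0 called members, 0 called list genes and 0 calls among all probe sets, with 1 residual degree of freedom, so this does not show that a difference rests on that array. The log2 difference of *Myog* then ran from 2.35 to 3.28 (limma adjusted p from 0.172 to 0.663), and it was 2.82 without the intensity trend (0.143). *Six4* passed with 1.91 (medians), 0.96 (quantile), 1.68 (offset) and 2.18 (filter), and *Myod1* with 1.68 (quantile) and 3.11 (filter). Signs turned for *Myf5* (-0.04), *Pax3* (-0.02) and *Pax7* (-0.03) with quantile normalization, for *Pax3* with medians (-0.08) and for *Myf6* without control IgG replicate 2 (0.06, and -0.15 to 0.06 over the arrays left out). *Pax3* and *Myf6* were at or near background, so their signs are not read as a direction, and division by medians lowers all probe sets alike. The cause was not tested.

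Nothing states that a shared replicate number marks a shared lysate or day. Deviations from the group means correlated across probe sets between same-numbered arrays (Pearson's r 0.639, which 2 pairs give as a single value). With the replicate block, limma called 11809 of 21044 probe sets higher (56.1%), 6 members and 41 list genes, with log2 differences of 3.11 for *Myod1*, 2.18 for *Six4*, 1.03 for *Myf5*, 0.40 for *Pax7* and 0.20 for *Pax3* now passing.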

Other observations

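*Myog* stood out by its order between the CUGBP1 IP arrays, a pattern noticed after the data were examined and given without a test. Of 10768 genes above background on both CUGBP1 IP arrays, 954 (8.86%) were brighter on replicate 1 than on replicate 2, and 115 (1.07%) were brighter on control IgG replicate 1 than on control IgG replicate 2. The 5 genes with the largest log2 ratio of CUGBP1 IP replicate 1 to replicate 2 were *Mrfap1* (1.74), *Myog* (0.94), *Ogn* (0.91), *Cd9* (0.80) and *Tnnt1* (0.72), the last encoding slow troponin T. *Mrfap1* was brighter on replicate 2 in control IgG, and so was *Myog*, by less (1.19 and 1.31).

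Of 8 markers of differentiated muscle, 6 were above background on both CUGBP1 IP arrays, while *Myh3* (1.33 and 1.25) and *Myh2* (1.14 and 1.29) were not. Of the 6, 5 (*Acta1*, *Tnnt3*, *Tnnc2*, *Mylpf* and *Mymk*) were brighter on replicate 1 and *Ckm* was brighter on replicate 2 (1.41 and 1.72). The median log2 ratio over the 6 was 0.07. *Mymk*, the fusion protein myomaker, read 2.11 and 1.71, while *Tnnt3* read 1.54 and 1.53 and *Tnnc2* read 1.37 and 1.32. Among the 18 known target genes of the bHLH factors above background there, 6 were brighter on replicate 1 (33.3%), *Actc1* and *Chrna1* among them. *Mylpf* and *Mymk* stand in both lists and are counted in both, so the 2 counts are not independent. *Myod1* and *Six4* had log2 ratios of -0.30 and -0.22, near the median of -0.26 over the 10768 genes, and *Myf5* had 0.18.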
